A study of Mus musculus with 10 samples.

Results

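The 8 genes described here code for caspases and for the proteins that switch them on or hold them back: Casp9, Apaf1, Casp2, Casp8, Casp6, Casp1, Xiap and Diablo. They were chosen by gene symbol and not by their values, although earlier results of these data were known. All 8 were among the 10767 genes of the deposited RNA-seq table. Messenger RNA was measured in CD8+ cDC1, the conventional dendritic cells of the spleen that present antigens of dead cells to CD8+ T cells. Cells with and without Ppef2, a phosphatase that binds calmodulin, were compared to find transcripts that depend on it.

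The cells were sorted as CD11c+MHCII+CD8+CD11b- from spleens of untreated mice, either Ppef2+/+ or Ppef2-/-. There were 5 libraries per genotype, 1 from each of 5 sorts, and each library was made from 3 pooled mice that were 8 to 13 weeks old. The Ppef2-/- mice carry a gene-trap cassette between exons 4 and 5 of Ppef2, which was introduced through JM8A3.N1 embryonic stem cells of C57BL/6 origin and is present in every cell of the body, not in DCs alone. The targeted gene matched the labels: its reads in sorts 1 to 5 were 212, 145, 95, 136 and 228 in Ppef2+/+ against 7, 8, 1, 0 and 2 in Ppef2-/- cDC1.

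Caspases are cysteine proteases that are made as inactive precursors and cut their substrates after aspartate. In the mitochondrial pathway, cytochrome c released from mitochondria binds Apaf1, and several Apaf1 molecules form the apoptosome, a wheel-shaped platform that activates Casp9. Casp9 then cleaves the executioner caspases, Xiap blocks active caspases such as Casp9, and Diablo, which also leaves the mitochondria, binds Xiap and relieves this block. Casp8 acts below death receptors, Casp2 is an initiator that is activated by stress and DNA damage, and Casp1 is the inflammasome protease that matures the cytokines Il1b and Il18. Because these proteins are controlled mainly by cleavage and binding, mRNA levels measure the supply of the precursors and not the activity of the pathway.

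The coding sequence around the catalytic cysteine is what the 5 caspases have in common, and the motif of Diablo that binds Xiap is the part by which it acts. Both are shown to make clear which genes were measured. Capitals mark the 5 codons of glutamine, alanine, the catalytic cysteine, any residue and glycine, or the 4 codons of alanine, valine, proline and isoleucine in Diablo. The stretches are from GENCODE M21 transcripts on GRCm38, the assembly also called mm10, and are written 5′ to 3′ on the coding strand.
Casp9: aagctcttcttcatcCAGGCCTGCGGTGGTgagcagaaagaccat
Casp2: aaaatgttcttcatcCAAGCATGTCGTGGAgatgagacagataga
Casp8: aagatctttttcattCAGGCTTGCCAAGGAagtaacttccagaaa
Casp6: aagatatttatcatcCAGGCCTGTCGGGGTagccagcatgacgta
Casp1: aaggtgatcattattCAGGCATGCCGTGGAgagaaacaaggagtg
Diablo: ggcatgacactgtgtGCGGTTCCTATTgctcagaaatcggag

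The stretch of Casp9 lies on chr4:141807232-141811552 (plus strand) in exons 6 and 7, and that of Casp2 on chr6:42276755-42279790 (plus strand) in exons 8 and 9. Casp8 has its stretch within exon 8, on chr1:58844598-58844642 (plus strand). For Casp6 it lies on chr3:129910681-129912144 (plus strand) in exons 5 and 6, and for Casp1 on chr9:5303744-5304200 (plus strand) in exons 6 and 7. The motif of Diablo is coded on chr5:123520164-123523287 (minus strand) by exons 2 and 3. Exons are counted in the principal transcript of each gene. All of these stretches except that of Casp8 are interrupted by an intron in the genome. Between any 2 of the 5 caspases, 10 to 13 of the 15 capital bases and 23 to 30 of all 45 bases were the same. The capital codons were chosen for residues that the caspases share, so much of their likeness follows from that choice. Casp2 and Casp1 shared 13 of the 15 capital bases and 27 of all 45 bases.

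The genes lie on 8 different chromosomes. Apaf1 is on chr10:90989311-91082770 (minus strand) with 27 exons, and Xiap is on chrX:42059679-42109656 (plus strand) with 6 exons. Exons of Casp9 share 94 bases with exons of Cela2a and Ctrc on the opposite strand, which code for pancreatic proteases. Diablo shares 1326 exonic bases with B3gnt4 and 122 with AC157931.1 on the opposite strand, and 1193 with Gm49027 on its own strand. The library kit does not mark strand, so reads from the shared bases cannot be told apart. Cela2a had a mean of 10.9 normalized counts in Ppef2+/+ and 23.5 in Ppef2-/- libraries, and Ctrc, B3gnt4, AC157931.1 and Gm49027 were not among the analysed genes.

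In the deposited table the level of each sort as a whole had been taken out gene by gene, since the values of both of its libraries have a total that does not vary between sorts. Whole reads could be calculated back for 9627 genes, the 8 described here included, and the levels of the 8 genes below are normalized counts with the sort means put back. A normalized count is the number of reads after scaling of the libraries for depth. For these 8 genes, the difference between genotypes within a sort is the same before and after this step. The libraries had 1396295 to 4409545 reads over the 9627 genes, and the depth of the Ppef2-/- library relative to its Ppef2+/+ partner ranged from 0.727 in sort 5 to 2.95 in sort 1. Markers were summed on the deposited values, since most cDC1 markers were too high to be resolved to reads. The ranges of these sums therefore leave out the variation between sorts. Of 12 markers of cDC1, all 12 were in the table, with a sum of 73649 to 76402 in Ppef2+/+ and 74286 to 77040 in Ppef2-/- libraries. Markers of other cells were present at lower sums. All 6 of cDC2 were in the table, with sums of 908 to 1320 in Ppef2+/+ and 911 to 1323 in Ppef2-/-, and 7 of 8 of macrophages and monocytes, with 804 to 966 and 800 to 963. For B cells it was 3 of 6, with 249 to 276 and 255 to 282, and Cd79a and Pax5 were not in the table. T cells had 1 of 6 (28.1 to 43.5 and 35.9 to 51.3), with Cd3e, Cd3d and Cd3g not in the table, neutrophils 1 of 5 (7.78 to 21.2 and 1.0 to 13.2) and erythroid cells 2 of 4 (73.5 to 142.9 and 78.2 to 147.6). The 6 markers of pDC summed to 1093 to 1227 in Ppef2+/+ and to 934 to 1065 in Ppef2-/- libraries. Among them, Tcf4 alone was lower in Ppef2-/- at an adjusted p of 0.018 (limma without a term for the sort). With the sort as a block Tcf4 was not called, since Ppef2 was the only gene of the table that passed. The part of depth and of other cells in the values of the 8 genes was not tested.

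None of the 8 genes differed between genotypes beyond the spread of the libraries. By mean, 4 were higher and 4 were lower in Ppef2-/- cDC1, with ratios of Ppef2-/- over Ppef2+/+ from 0.955 for Casp8 to 1.03 for Casp1. In limma on log2(value + 1) without a term for the sort, 0 of 8 had an adjusted p under 0.05 and 0 of 8 an unadjusted p under 0.05, against 0.957% and 17.5% of all 10767 genes. With the sort as a block, both numbers were again 0 of 8, against 0.00929% and 4.29% of all genes, and with limma's voom on the reads they were 0 of 8 against 0.0208% and 4.6% of 9627 genes. The genotypes overlapped in all 8 genes, whereas they did not overlap in 0.54% of the 9627 genes. None of the 8 moved in the same direction in all 5 sorts, which 6.23% of the 9627 genes did. The median log2 fold change was −0.0091 over the 8 genes and 0.00089 over all genes.

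**Figure D1:**
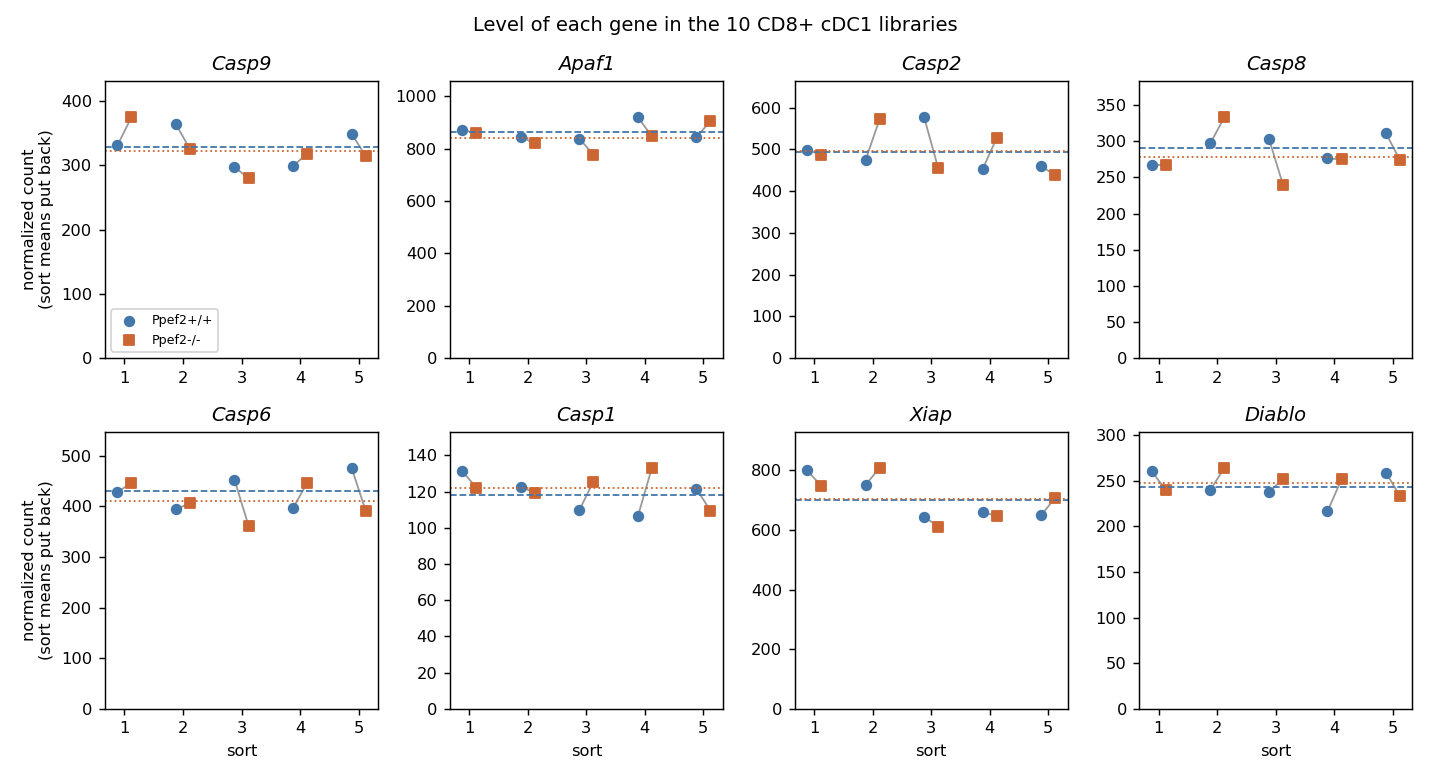
Normalized counts with the sort means put back (vertical axes, starting at 0) of the 8 genes in sorts 1 to 5 (horizontal axes). Circles are Ppef2+/+ and squares are Ppef2-/- libraries, grey lines join both libraries of a sort, and the dashed and dotted lines are the means of Ppef2+/+ and Ppef2-/-; the grey lines point up in some sorts and down in others for every gene, from 1 of 5 sorts up for Apaf1 to 3 of 5 for Casp6 and Diablo.

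Casp9, the initiator caspase of the mitochondrial pathway, had a mean of 328 ± 29.6 normalized counts in Ppef2+/+ and 323 ± 34.2 in Ppef2-/- cDC1 (SD, n = 5 each). From sort 1 to sort 5, the levels were 331, 364, 298, 299 and 350 normalized counts in Ppef2+/+, and 375, 326, 280, 318 and 315 in Ppef2-/-. It was thus higher in Ppef2-/- in sorts 1 and 4 and lower in sorts 2, 3 and 5, and the highest and the lowest library were both Ppef2-/-. The difference within sorts was −5.59 ± 35.7 normalized counts (mean ± SD of 5 sorts), with a log2 fold change of −0.025 ± 0.049 (SE) and an adjusted p of 0.842 in limma. Under the block, the 95% interval of the fold change was 0.878 to 1.10. An exact permutation test within sorts gave a two-sided p of 0.813, where 0.0625 is the smallest p that 5 sorts allow.

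Apaf1, the scaffold of the apoptosome, had the most reads of the 8 genes, with 558 to 1848 per library. Ppef2+/+ libraries had 873, 845, 839, 920 and 844 normalized counts in sorts 1 to 5, compared to 858, 820, 778, 848 and 905 in Ppef2-/-. It was lower in Ppef2-/- in 4 of 5 sorts and higher in sort 5, where the Ppef2-/- library was the second highest of all 10. The means were 864 ± 34.1 and 842 ± 47.2 (SD, n = 5 each), a difference of −22.8 ± 52.5 within sorts. Its adjusted p of 0.569 in limma was the smallest of the 8, at a log2 fold change of −0.038 ± 0.032 (SE). The interval of the fold change with the block was 0.897 to 1.06, so that a rise of Apaf1 by more than 1.06-fold or a fall to less than 0.897-fold lay outside it.

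Casp2 was the gene whose difference between genotypes varied most from sort to sort. Over sorts 1 to 5 it had 500, 474, 577, 453 and 460 normalized counts in Ppef2+/+ compared to 486, 573, 455, 527 and 438 in Ppef2-/- cDC1. The ratio of Ppef2-/- over Ppef2+/+ was 1.21 in sort 2 and 1.16 in sort 4, but 0.789 in sort 3. The counting intervals of these 3 ratios excluded 1 (1.07 to 1.37, 1.03 to 1.32 and 0.689 to 0.904). Such an interval covers the error of read numbers only, and it excluded 1 in 6 of the 40 within-sort ratios of the 8 genes, compared to 20.8% of those of all genes with a mean of at least 100 and 18.3% of those of all resolved genes, so that ratios of this kind are no result particular to these genes. Opposite directions cancelled in the means of 493 ± 50.4 and 496 ± 54.6 (SD, n = 5 each), with a log2 fold change of 0.0088 ± 0.069 (SE) and an adjusted p of 0.967 in limma. The SD of the difference over sorts was 87.5 normalized counts, 2.71 times the SD that counting of reads alone gives.

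Casp8, the initiator below death receptors, had the lowest ratio of the 8 genes. Ppef2+/+ cDC1 of sorts 1 to 5 had 267, 297, 304, 276 and 311 normalized counts, whereas Ppef2-/- cDC1 had 268, 333, 240, 275 and 274. Both genotypes were within 2 normalized counts of each other in sorts 1 and 4, whereas Ppef2-/- was higher in sort 2 and lower in sorts 3 and 5. In sort 3 the ratio was 0.790 with a counting interval of 0.654 to 0.955. The means were 291 ± 18.6 and 278 ± 34.1 (SD, n = 5 each), and that of Ppef2-/- was 0.955 times that of Ppef2+/+. This gave a log2 fold change of −0.067 ± 0.058 (SE) and an adjusted p of 0.594 in limma, with a fold change interval of 0.845 to 1.08 under the block.

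**Figure D2:**
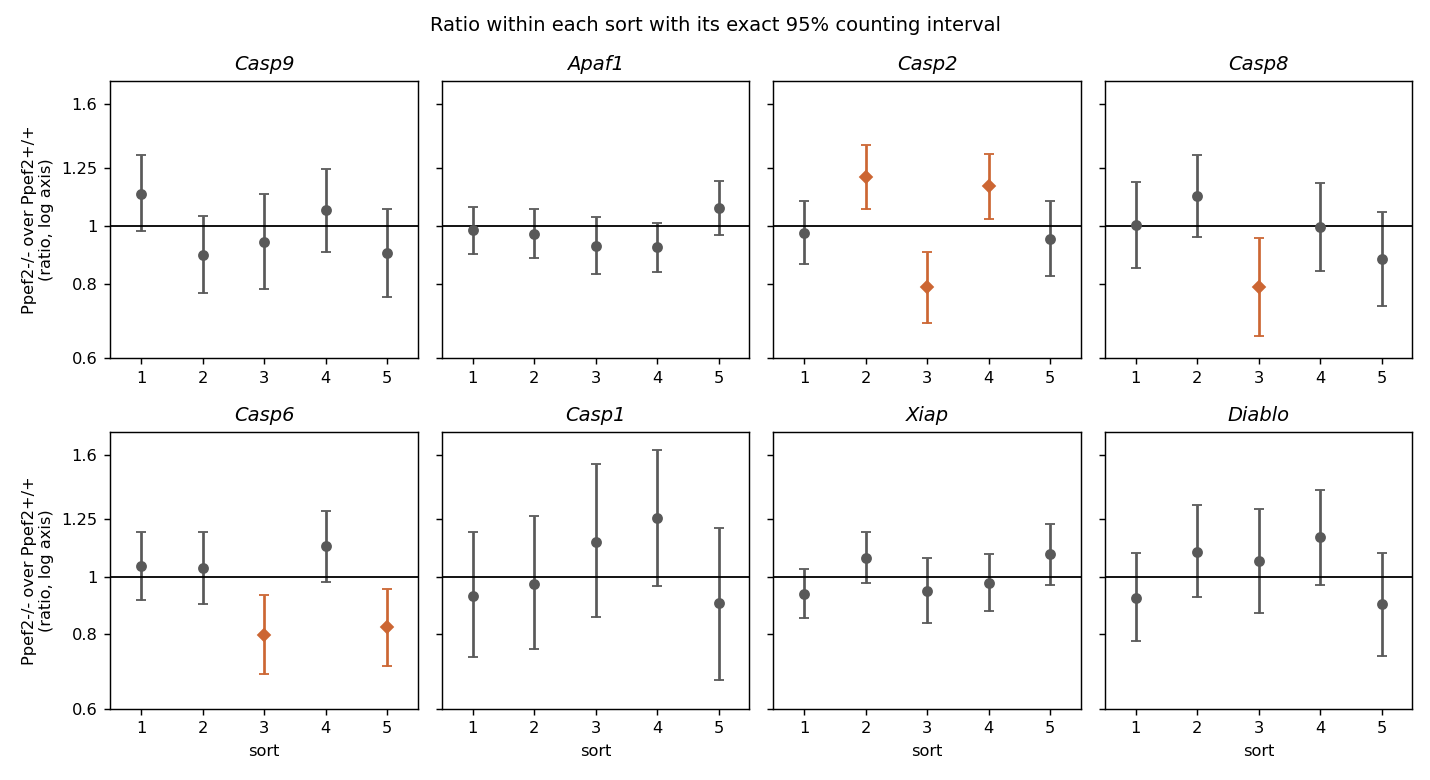
Ratio of the Ppef2-/- to the Ppef2+/+ library (vertical axes, logarithmic) within sorts 1 to 5 (horizontal axes) for the 8 genes, with exact 95% intervals for counting error. Orange diamonds are the 6 of 40 ratios whose interval excludes 1, which are Casp2 in sorts 2, 3 and 4, Casp8 in sort 3 and Casp6 in sorts 3 and 5; all 40 ratios lie between 0.789 and 1.25, and 20.8% of the intervals of all genes with a mean of at least 100 exclude 1.

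Casp6 is counted among the executioner caspases and cleaves lamin A, a protein of the nuclear envelope. Its normalized counts in sorts 1 to 5 were 428, 394, 452, 396 and 476 in Ppef2+/+ and 446, 406, 362, 446 and 392 in Ppef2-/- cDC1. It was higher in Ppef2-/- in sorts 1, 2 and 4, whereas in sorts 3 and 5 the ratios were 0.799 and 0.823, with counting intervals of 0.686 to 0.932 and 0.708 to 0.955. The mean was therefore lower in Ppef2-/- (410 ± 36.3) than in Ppef2+/+ (429 ± 35.5; SD, n = 5 each), although the smaller number of sorts was lower. The log2 fold change was −0.066 ± 0.061 (SE) with an adjusted p of 0.622 in limma, and the block gave a fold change interval of 0.852 to 1.07.

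Casp1, the protease of inflammasomes, was the gene with the fewest reads, 73 to 263 per library. Normalized counts of 131, 123, 110, 106 and 121 were found in Ppef2+/+ cDC1 of sorts 1 to 5, and of 122, 119, 126, 133 and 110 in their Ppef2-/- partners. Ppef2-/- was higher in sorts 3 and 4 and lower in the other 3 sorts. Its ratio of 1.25 in sort 4 was the largest of all 40 within-sort ratios, but the counting interval of 0.965 to 1.63 included 1. Means of 118 ± 10.2 and 122 ± 8.64 (SD, n = 5 each) gave a log2 fold change of 0.043 ± 0.068 (SE) and an adjusted p of 0.791 in limma. The fold change interval of 0.872 to 1.22 with the block was the widest of the 8 genes. The SD of the difference over sorts was 1.06 times that of counting alone, the lowest such ratio of the 8 genes.

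Xiap, the inhibitor of Casp9, had 799, 751, 645, 661 and 649 normalized counts in Ppef2+/+ and 749, 808, 611, 646 and 708 in Ppef2-/- cDC1 of sorts 1 to 5. All 4 libraries of sorts 1 and 2 were above the other 6 libraries, whichever the genotype. Within sorts, Ppef2-/- was higher in sorts 2 and 5 and lower in sorts 1, 3 and 4. The means of 701 ± 70.1 and 704 ± 79.0 (SD, n = 5 each) differed by 0.45%, with a log2 fold change of 0.0065 ± 0.035 (SE) and an adjusted p of 0.950 in limma. With the block, the fold change interval was 0.921 to 1.10.

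Diablo, the mitochondrial protein that displaces caspases from Xiap, had 260, 240, 237, 216 and 259 normalized counts in Ppef2+/+ and 240, 264, 252, 252 and 233 in Ppef2-/- cDC1. It was higher in Ppef2-/- in sorts 2, 3 and 4 and lower in sorts 1 and 5. The means were 243 ± 18.0 and 248 ± 12.1 (SD, n = 5 each), with a log2 fold change of 0.032 ± 0.052 (SE) and an adjusted p of 0.800 in limma. The fold change interval with the block was 0.904 to 1.16.

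**Figure D3:**
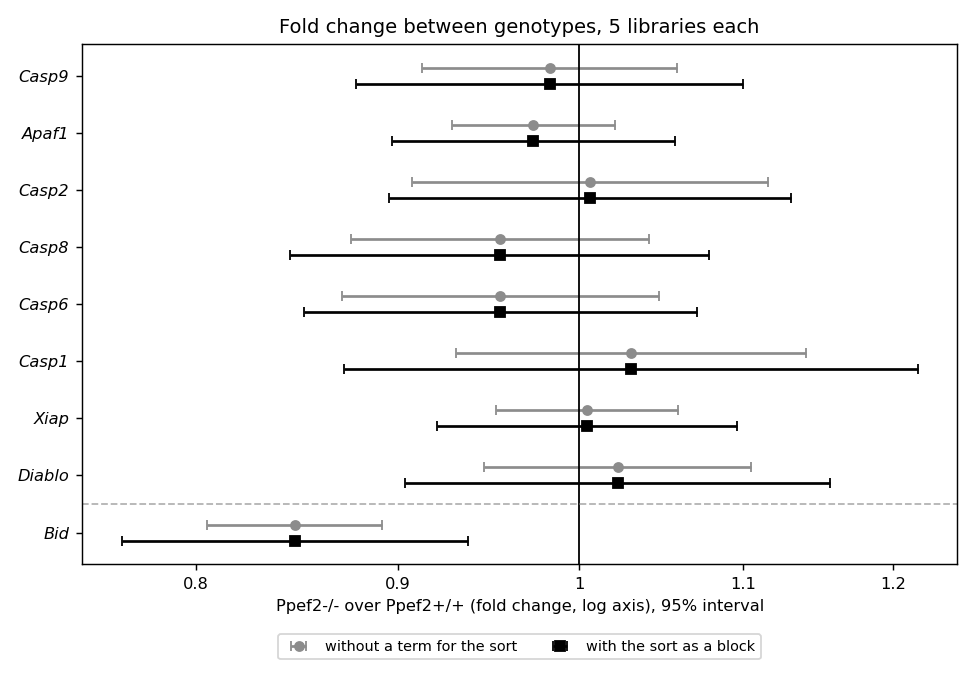
Fold change of Ppef2-/- over Ppef2+/+ cDC1 (horizontal axis, logarithmic) with 95% intervals from limma without a term for the sort (grey circles) and with the sort as a block (black squares), for the 8 genes and, below the dashed line, Bid. All 8 intervals include 1 in both models, and with the block they lie between 0.845 and 1.22.

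Exact permutation tests over the libraries gave two-sided p of 0.405 to 0.929 for the 8 genes when libraries were exchanged freely, where 0.00794 is the smallest p possible, and of 0.313 to 1.00 when they were exchanged within sorts, where it is 0.0625. A p above the threshold does not show that the levels were equal. What the intervals with the block leave room for is a fall to 0.845-fold (Casp8) or a rise to 1.22-fold (Casp1). The model without the block takes its error from values whose variation between sorts had been removed, and its intervals were narrower in all 8 genes. The mice behind each library were pooled, and fewer cells with a transcript and fewer transcripts per cell cannot be told apart in such bulk RNA.

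Within single sorts, Ppef2-/- was higher in 3, 5, 2, 5 and 2 of the 8 genes in sorts 1 to 5, against 49, 49.9, 51.3, 50.4 and 51.3% of the 9627 genes. The median log2 ratio of the 8 genes was −0.032, 0.075, −0.098, 0.13 and −0.15 in these sorts. In sort 3 the 3 ratios of Casp2, Casp8 and Casp6 were nearly the same, at 0.789, 0.790 and 0.799. In sort 4, Casp2 had a ratio of 1.16, Casp6 of 1.12 and Casp8 of 0.994. Their counting intervals overlapped there (1.03 to 1.32, 0.981 to 1.29 and 0.839 to 1.18), so the ratios of these 3 genes did not differ beyond counting error. Of the 6 counting intervals that excluded 1, 2 were of higher and 4 of lower ratios, against 10.4% and 10.3% of those of all genes with a mean of at least 100 and 9.1% and 9.2% of those of all resolved genes.

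The sort, with 4 degrees of freedom, took a larger share of the variation than the genotype, with 1, in all 8 genes. With these degrees of freedom noise alone tends to give the sort the larger share, so this order shows no effect of the sort. Sums of squares were calculated on log2(normalized count + 1) with the sort means put back. The share of the sum of squares over the 10 libraries that belonged to the genotype ranged from 0.0314% for Xiap to 9.09% for Apaf1. Its median over 5719 genes with a mean of at least 100 normalized counts was 4.16%. The share of the sort was 88.4% for Xiap, 70.1% for Casp9, 54.7% for Apaf1 and 46.6% for Casp8, compared to a median of 53.8% over the 5719 genes. For Casp2, Diablo, Casp1 and Casp6 it was 31.3, 20.8, 19.3 and 18.8%, and in these genes most of the variation belonged to neither. The mean of both libraries of a sort was highest in sort 2 for Xiap (780 normalized counts) and lowest in sort 3 (628), a ratio of 1.24. This ratio was 1.22 for Casp9 and 1.08 for Diablo, the smallest of the 8, against a median of 1.20 over the 5719 genes. The sort with the lowest mean was sort 3 for 3 of the 8 genes and sort 5 for 2, and sorts 1, 2 and 4 had it for 1 gene each.

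**Figure D4:**
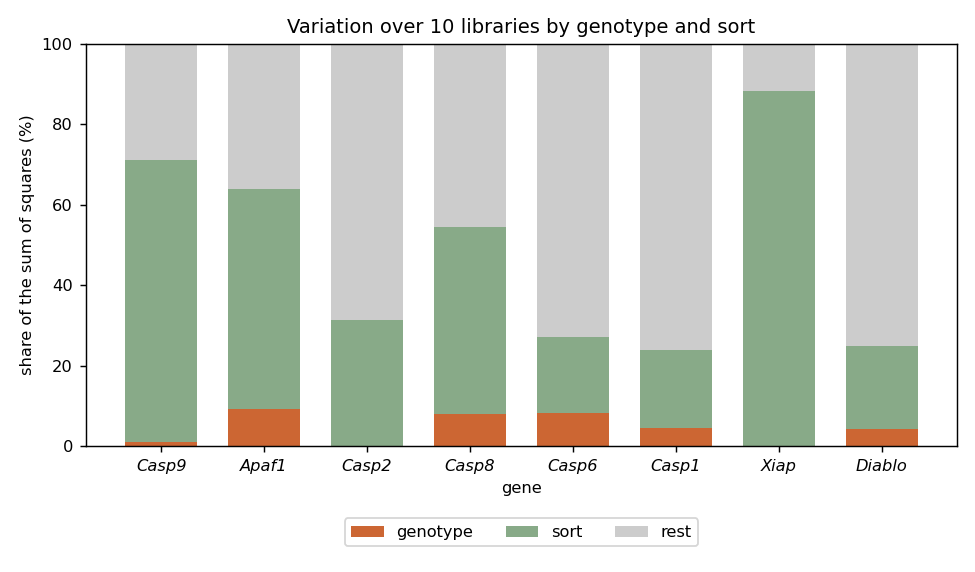
Share of the sum of squares over 10 libraries (vertical axis, percent) that belongs to the genotype, the sort and the rest, for each of the 8 genes (horizontal axis), on normalized counts with the sort means put back. The genotype takes 9.09% at most (Apaf1), and the sort takes 88.4% in Xiap but 18.8% in Casp6.

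To compare levels between genes, normalized counts were divided by the length of the exons in kilobases. The lengths are of GENCODE M21, whereas the authors counted reads per RefSeq gene. The exons counted may thus differ from those measured, and the effect on the order of the genes was not tested. Casp6 was at the top with 288 normalized counts per kilobase (248 to 327 over the 10 libraries), 2.06 times the level of Casp2 at 140 (124 to 164). Apaf1 followed at 103 (94.0 to 111). The ranges of these 3 genes did not overlap, and all 10 libraries had them in this order. Casp8 (98.3), Xiap (90.7), Casp9 (83.5), Casp1 (80.3) and Diablo (67.6) came next. From Apaf1 downwards, neighbours overlapped in their ranges, and Apaf1 was above Casp8 in 6 of 10 libraries. By genotype, levels were for example 84.3 ± 7.60 and 82.8 ± 8.76 per kilobase for Casp9 and 104 ± 4.12 and 102 ± 5.71 for Apaf1 (SD, n = 5 each). The place of Diablo depended on its length: with the 1576 bases of its principal transcript in place of the 3631 bases of all its exons, its level was 156 per kilobase, next to Casp6. With these lengths, Apaf1 was at 130 and its range overlapped with that of Casp2.

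**Figure D5:**
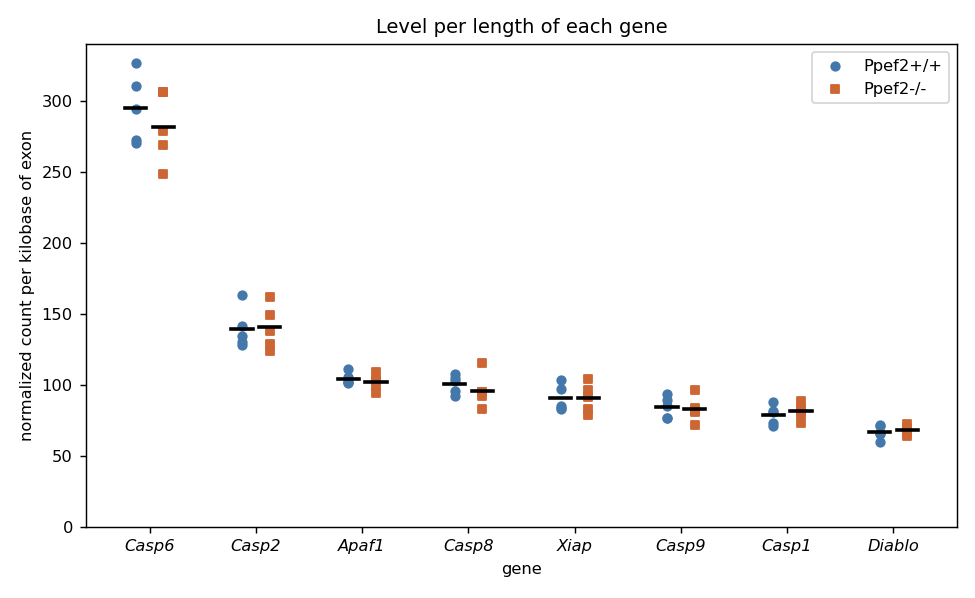
Normalized counts per kilobase of exon (vertical axis, starting at 0) of the 8 genes (horizontal axis, from high to low), with Ppef2+/+ libraries as circles, Ppef2-/- libraries as squares and the mean of each genotype as a black line. Casp6 lies at 248 to 327 in all 10 libraries, above every library of the other 7 genes.

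Over the 10 libraries, the 28 pairs of the 8 genes had a median Pearson r of 0.211 on log2 normalized counts with the sort means put back, from −0.638 for Apaf1 and Diablo to 0.741 for Casp1 and Diablo, and 23 of 28 were above 0. The median r of a member to all resolved genes with a mean of at least 100 was between −0.0042 (Casp6) and 0.023 (Casp9). Libraries come in pairs from the same sort, so these are descriptions of 10 points that are not independent. The 28 pairs also share genes, and how often other sets of 8 genes reach such values was not tested. Casp9 was most alike to Xiap among the 8 genes (r = 0.587), and Casp2 to Casp8 (r = 0.537). Among all resolved genes with a mean of at least 100, the gene most alike to each was Nup160 for Casp9 (r = 0.968), Phf20l1 for Xiap (r = 0.962), Aldh18a1 for Diablo (r = 0.930) and Atp5sl for Apaf1 (r = 0.925). Dnpep was most alike to Casp1 (r = 0.918), Rnf20 to Casp6 (r = 0.914), D430042O09Rik to Casp8 (r = 0.904) and Abracl to Casp2 (r = 0.883). Each of these is the highest r of 5719 genes.

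Other genes of the pathway were taken from 5 lists, of which 4 are described one by one, and 47 of their 54 genes were in the table. In limma without a term for the sort, 0 of the 47 rose and 1 fell at an adjusted p under 0.05, the substrate Bid, against 0.474% and 0.483% of all genes. With the block 0 of 47 passed, and the numbers at an unadjusted p under 0.05 were 9 of 47 without and 2 of 47 with the block, close to the 17.5% and 4.29% of all genes. The median log2 fold change was −0.031 over 8 mitochondrial factors and apoptosome regulators, and −0.011 over 12 adaptors and sensors. It was 0.014 over 8 genes of the IAP family and partners of Xiap and −0.0097 over 15 caspase substrates.

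Bid links the death receptor branch to the mitochondria, since Casp8 cleaves it to a fragment that acts on Bax and Bak1. It had 459, 425, 344, 358 and 400 normalized counts in Ppef2+/+ and 384, 347, 298, 290 and 364 in Ppef2-/- cDC1, and was lower in Ppef2-/- in all 5 sorts although the genotypes overlapped. The log2 fold change was −0.24 ± 0.034 (SE) with an adjusted p of 0.018 in limma without a term for the sort. Under the block the unadjusted p was 0.0027 and the adjusted p 0.995, so the call did not hold. Leaving out single libraries of sorts 2 and 3 or the Ppef2-/- library of sort 4 raised the adjusted p without the block to between 0.0503 and 0.0599. In the deposited values used for this, the partner of a library left out still mirrors it.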

How the data were processed

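mRNA of sorted splenic CD8+ cDC1 was sequenced in 10 libraries as 50 bp single-end reads from an unstranded TruSeq kit. According to the paper's methods the authors aligned reads to mm10 with HISAT 0.1.7-beta, whereas the submitters' processing notes name TopHat2 2.0.3, so the aligner is not settled. The authors counted reads per RefSeq gene in Partek 6.6, normalized with DESeq2, set values under 1 to 1 and removed genes with a mean under 10 in both genotypes. What the authors deposited is a signal of normalized counts in place of raw counts, and 0 columns were left out. A step not given in the sources used here had made the sum of both libraries of a sort constant over sorts (largest relative spread 6.28e-06 in 10721 genes without a value at the floor).

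Whole reads were calculated back from the size of 1 read, which was 0.464 to 1.50 normalized counts, for the 9627 genes with all values under 1000. Sort means put back are these reads times the value of 1 read. Genotypes were compared with limma 3.58.1 (trend, two-sided) in R 4.3.3 on log2(deposited value + 1), with Benjamini-Hochberg adjustment over 10767 genes. The main model had no term for the sort, as the one-way model of the study. The paper names 5 sorts but does not say which libraries of both genotypes belong together. Libraries with the same sort number were paired. In all 5 pairs the deviation of one library from its genotype mean mirrored that of its partner (r = −1.00 across genes), which follows from the constant sums. Intervals for ratios of reads are exact 95% intervals (Clopper-Pearson) and leave out every error but that of counting. The limma fits and the recovery of reads were checked on simulated data.

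The 8 genes, the 5 pathway lists and the marker lists were chosen with earlier results of these data known. Named beside the 8 genes were Ppef2, genes of the pathway lists with an adjusted p under 0.05, the gene most alike to each member, overlapping genes and single markers. The overlapping genes and the markers were named after their values were seen. Alternatives were the block, pseudocounts of 10 and 0.5, a mean of at least 50, upper-quartile scaling, eBayes without a trend, no log, sort means put back, voom on reads, and each library left out. Leaving out each sort in both genotypes and the principal transcript length were alternatives added later, with the data known. Some items are not reported here. P-values of the models with the block and of the permutation tests measure the spread between pools of mice. Those of the models without the block on the deposited values rest on values whose variation between sorts had been removed. They do not cover that part of the spread.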

Additional observations from a re-analysis of the deposited data

How the results depend on the processing

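Under the 25 alternatives, 0 of the 8 genes had an adjusted p under 0.05, and the smallest of the 200 adjusted p-values was 0.395 (limma). The direction was the same in 184 of the 200 values and turned in 16, all of them with a library or a sort left out. The block, the mean of at least 50 and eBayes without a trend leave the log2 fold change itself unchanged. They could not turn its direction, so the number of values with the same direction is no measure of how firm it is. With single libraries left out, the log2 fold change ranged from −0.027 to 0.056 for Casp2 and from −0.0079 to 0.020 for Xiap. These fits used the deposited values, where the partner of a library that was left out still mirrors it. Leaving out either library of a sort therefore gave nearly the same value, such as −0.027 (Ppef2+/+) and −0.025 (Ppef2-/-) for Casp2 in sort 2. With a sort left out in both genotypes and the sort as a block, it ranged from −0.079 to 0.012 for Casp9 (0.0074 without sort 5), −0.061 to 0.10 for Casp2 (−0.043 without sort 4), −0.026 to 0.090 for Casp1, −0.022 (without sort 5; −0.021 without sort 2) to 0.034 for Xiap and −0.012 to 0.078 for Diablo.

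The number of genes called in the whole table depended on the model: 51 higher and 52 lower without a term for the sort. With the sort as replicate block 0 were higher and 1 was lower, and the pairing changed no call of the 8 genes. Sort means put back gave 0 higher and 1 lower without and 0 higher and 2 lower with the replicate block, and voom on reads gave 0 higher and 2 lower. Without a trend there were 91 higher and 102 lower, and without a log 102 higher and 81 lower. With single libraries left out 1 to 12 were higher and 0 to 14 lower, and with a sort left out under the block 0 to 2 were higher and 1 to 2 lower. A single library left out of the deposited values is still mirrored there by its partner. Which part of the differences in these numbers comes from fewer samples was not tested. Depth limits Casp1 most, with 73 reads in its shallowest library.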

Other observations

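No library stood apart from the others of its genotype in any of the 8 genes. Dixon's ratio was examined in 32 groups of 5 libraries, in both genotypes, before and after the sort means were put back, and exceeded its 95% critical value in 0 of them, where chance gives 1.6. Before the sort means were put back, the genotypes mirror each other and give the same ratio. Those groups are thus not separate checks, and they concern the difference within sorts more than a single library.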
